A study of Mus musculus with 6 samples.

Results

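Among the dissociated cells of the adult mouse olfactory bulb, the authors named 1 cluster Mono, for monocyte. Its members were taken from the deposited annotation by that cluster name, and they numbered 623 of 51426 annotated cells, or 1.21% (exact Clopper-Pearson 95% interval 1.12 to 1.31%). Of the 38 clusters of the whole bulb, 26 were larger. Together with 1 macrophage cluster (572 cells) and the microglia clusters MicroG1 (790 cells), MicroG2 (2260 cells) and MicroG3 (951 cells), the Mono cluster made up the 5196 immune cells described here, of which it held 11.99%. MicroG1 and MicroG2 are numbered as in the annotation, and the study's own list of clusters gives these 2 numbers the other way round.

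All mice were wild-type C57BL/6NJ mice of 14 weeks, and each library was made from the pooled bulbs of 3 mice. The 6 droplet libraries fell into 2 control, 2 naris occlusion and 2 trained libraries. Naris occlusion blocks the air flow through a nostril with a plug, and trained mice, which were deprived of water, learned to tell odorants apart for a water reward, both over 6 weeks. The labels give the control mice no manipulation, whereas the study's text also takes the open side of occluded mice as the control, so it is not known whether control and naris occlusion libraries shared mice. Brains were perfused with saline before dissection, the bulb carried some adjoining olfactory epithelium, and cells were freed with papain. Replicates 1 and 2 of each condition differed in sex, which the Mono cells themselves show. Xist, the RNA that silences an X chromosome in females, had 0 UMIs (unique molecular identifiers, each marking 1 captured RNA molecule) in every replicate 1 and 294 to 309 UMIs in every replicate 2, and Ddx3y, a gene of the Y chromosome, had 9 to 18 UMIs in every replicate 1 and 0 in every replicate 2. Water deprivation and training cannot be told apart. Each condition held 1 male and 1 female pool. The spread between pools that p-values between conditions measure therefore includes any difference of sex, except where the replicate number is a block.

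Monocytes are blood leukocytes of the myeloid lineage that patrol vessels, enter tissue and there become macrophages or cells that present antigen. Classical mouse monocytes carry Ly6C on their surface and leave the bone marrow through the chemokine receptor CCR2. Cells that present antigen load peptides onto major histocompatibility complex (MHC) class II molecules, whose chains are guarded during their assembly by the invariant chain, the product of Cd74. Microglia, the resident macrophages of brain tissue, arise separately from blood leukocytes, whereas some macrophages of the brain's borders, such as those of the choroid plexus, are replaced in part from blood monocytes, and lymphocytes and neutrophils are rare in healthy brain tissue.

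MHC class II genes were among those that set the Mono cluster apart, and the promoters of a pair of them are shown for the CCAAT motif, the core of the Y box that the class II promoters are known for. The sequences are those of RefSeq on GRCm38.p6, the assembly that mm10 is made from, and cover the 150 bases before the annotated transcription start, read 5′ to 3′ on the strand of the gene, with CCAAT or its reverse complement ATTGG in capitals. The promoter of H2-Ab1 was not shown.
H2-Aa, chr17:34287824-34287973, minus strand: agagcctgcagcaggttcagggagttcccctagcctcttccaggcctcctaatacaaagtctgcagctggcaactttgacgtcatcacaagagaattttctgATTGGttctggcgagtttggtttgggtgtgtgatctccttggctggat
H2-Eb1, chr17:34305717-34305866, plus strand: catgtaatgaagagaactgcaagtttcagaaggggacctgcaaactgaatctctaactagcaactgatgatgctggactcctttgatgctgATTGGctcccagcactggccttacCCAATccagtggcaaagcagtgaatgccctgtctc
H2-Aa held 1 match, starting at -48 from the transcription start, and H2-Eb1 held 2 matches, at -59 and -35. Over the 250 bases before the start, 33.8% of 32851 RefSeq promoters held CCAAT on either strand, so the motif is common, and a match is a description of the letters and not a site that was measured.

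Control 1 and 2 gave 137 and 101 Mono cells, naris occlusion 1 and 2 gave 81 and 127, and trained 1 and 2 gave 85 and 92. They held 164851 to 297653 UMIs per library, with a median of 1844 UMIs per cell. Macrophage cells had a median of 1629.5 UMIs, MicroG1 2336, MicroG2 1847 and MicroG3 748. Of 622 barcode sequences in the cluster, 1 was shared by Mono cells of 2 libraries, and 44 were found in some cluster of another library. For the trained cells the start of the cell name and the annotated library are crossed, and each cell was given its annotated library.

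Levels are given as CPM, the UMIs of a gene per 1000000 UMIs of all cells of a cluster in a library, as mean ± SD over the 6 libraries. A gene was called higher when its lowest Mono library lay above the highest library of all other 4 immune clusters, and lower in the reverse case. Among 3516 genes with a mean of at least 50 CPM in 1 of the 5 clusters, 123 were higher in the Mono cluster (3.5%) and 30 were lower (0.853%). The rule depends on how many libraries and clusters it spans, with 369 higher and 196 lower in the 2 control libraries only and 194 and 90 without MicroG3. The clusters were made from these genes, so these calls are a description and no test was made. Of the 123 higher genes, 79 also had their highest mean of all 38 clusters in the Mono cluster, as had 226 of all 3516 genes tested. The 123 were already above the other 4 immune clusters, so their larger share is in part built in.

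The study lists Cd74 for its monocyte cluster and Cd52 for its macrophage cluster. Here both genes were far higher in the Mono cluster than in the other immune clusters. Cd74 had 12894 and 13071 CPM with control, 12195 and 13423 CPM with naris occlusion and 13157 and 12043 CPM with training, a mean of 12797 ± 555 CPM. The next of the 38 clusters was the macrophage cluster with 547 CPM. Cd52, a small glycoprotein on the surface of leukocytes, had a mean of 1808 ± 268 CPM, with 1502 CPM in its lowest Mono library and 552 CPM in the highest library of any other immune cluster. The Cd74 levels of the 6 libraries lay within a narrow band and did not follow the conditions.

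Genes of MHC class II presentation were higher as a group. Of 9 listed genes tested, 7 were higher, 0 were lower and 2 overlapped with other immune clusters. H2-Aa, the α chain of I-A, had 4085 and 3860 CPM in the control, 3891 and 3773 CPM in the naris occlusion and 3628 and 3606 CPM in the trained libraries. No other immune cluster exceeded 141 CPM of H2-Aa in any library. The β chains H2-Ab1 and H2-Eb1 had means of 4765 ± 441 and 3582 ± 225 CPM, beside 3807 ± 179 CPM of H2-Aa. H2-DMa and H2-DMb1, which together exchange the invariant-chain peptide for antigen, had means of 549 ± 97.5 and 398 ± 101 CPM, with 205 and 154 CPM in MicroG2. H2-DMb2 was also higher, at 58.5 ± 22.0 CPM. Ciita, the master regulator of the class II genes, was below the minimum level but was seen in 31 Mono cells, with a mean of 29.5 ± 21.8 CPM in the Mono cluster and 0.41 CPM in MicroG2, and it was listed at 0 in the macrophage, MicroG1 and MicroG3 clusters. Ctss, a protease that trims the invariant chain, overlapped and had a lower mean in the Mono cluster (1837 CPM) than in MicroG2 (5627 CPM). The 16 listed genes of MHC class I presentation differed less, with 1 of 13 tested called higher (H2-Q7, 182 ± 97.3 CPM against 29.4 CPM in MicroG1).

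**Figure D1:**
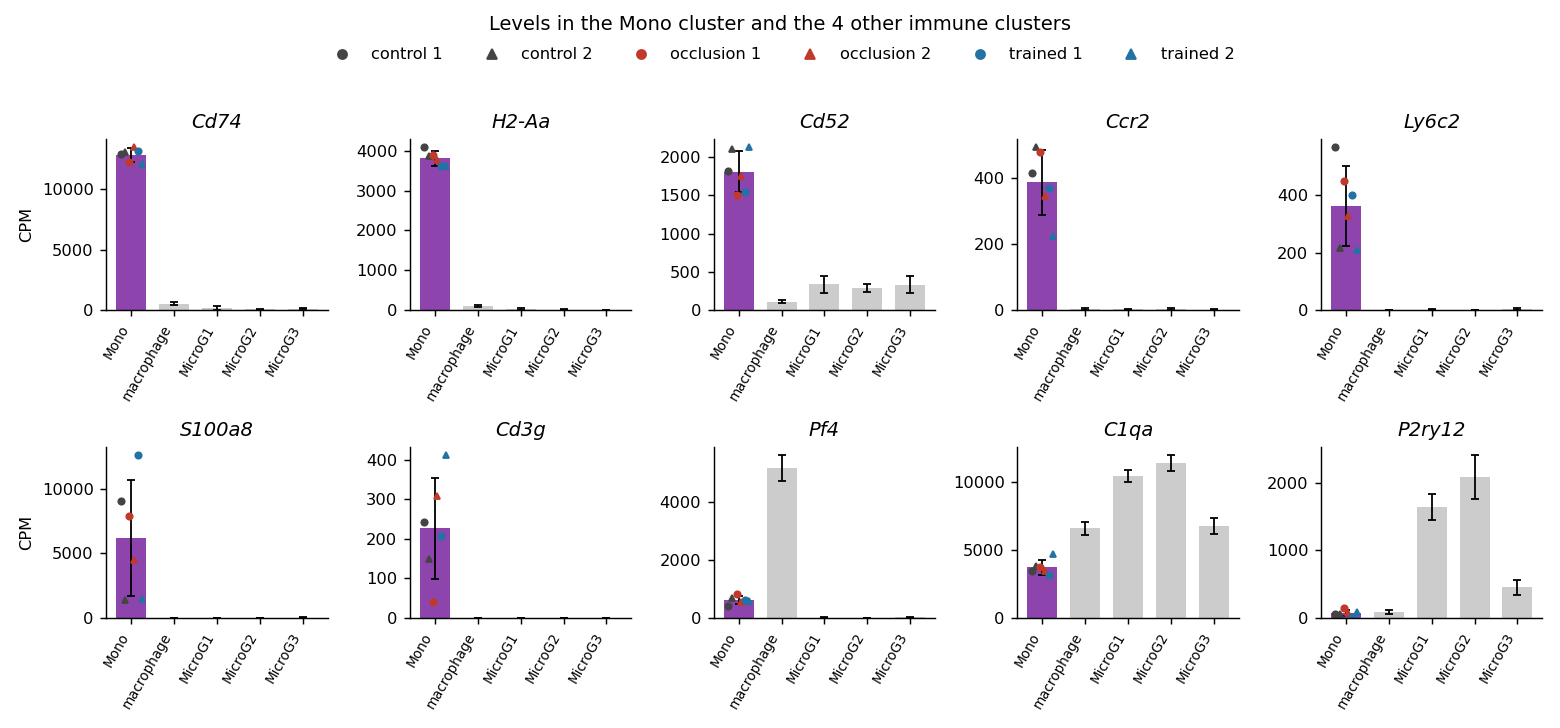
Level in CPM (y axis, linear, from 0) of 10 genes in the Mono cluster (purple) and the macrophage, MicroG1, MicroG2 and MicroG3 clusters (grey). Bars are means over 6 libraries, error bars are SDs, and points are the Mono libraries. Cd74 and H2-Aa stand above every other cluster with little spread, S100a8 spreads from 1377 to 12605 CPM, and C1qa, Pf4 and P2ry12 have higher bars in other clusters.

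Genes of classical monocytes were higher in part. Of 11 listed genes tested, 5 were higher and 0 lower. Ccr2 had 413 and 492 CPM in the control, 477 and 343 CPM in the naris occlusion and 370 and 225 CPM in the trained libraries, and at most 6.59 CPM in any library of the other immune clusters. Ly6c2, the Ly6C antigen itself, had 568 and 216 CPM, 450 and 330 CPM, and 400 and 211 CPM in the same order. Plac8 (267 ± 149 CPM) and the calcium-binding proteins S100a4 (187 ± 43.4 CPM) and S100a6 (662 ± 86.0 CPM) were the other members called. Lyz2, lysozyme of myeloid cells, did not separate the clusters, at 6339 ± 1928 CPM in the Mono and 6098 CPM in the macrophage cluster. Of the called genes, Ccr2 was seen in 169 (27.1%), Ly6c2 in 71 (11.4%) and Plac8 in 58 (9.31%) of the Mono cells, while Lyz2 was seen in 407 (65.3%) and H2-Ab1 in 371 (59.6%). No listed gene of nonclassical monocytes was called, with 2 of 12 above the minimum level.

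Genes of other leukocytes were as far apart. The largest log2 ratios to the next immune cluster, with 10 CPM added to each mean, belonged to S100a8 (8.38), S100a9 (8.0) and Retnlg (6.17), which are made in neutrophils. S100a8 had 9037 and 1377 CPM in the control, 7898 and 4500 CPM in the naris occlusion and 12605 and 1436 CPM in the trained libraries. Its UMIs came from 40 of the 623 cells, and the libraries of replicate 1 held the 3 highest values. Nkg7, a granule protein of cytotoxic lymphocytes, had a mean of 316 ± 145 CPM, and Cd3g and Cd3d, chains of the T cell receptor complex, had means of 226 ± 129 and 150 ± 71.7 CPM. In the same order of libraries, Cd3g had 242, 150, 40.1, 308, 206 and 413 CPM, and it was listed at 0 in every library of the other immune clusters. Ccl5, a chemokine of T and NK cells, had 2291 ± 1357 CPM against 135 CPM in MicroG1, and Ms4a4b, Ptprcap and Gimap4, genes of lymphocytes, were also among the 20 with the largest ratios. In all, 4 of 7 tested T cell genes, 5 of 6 NK and innate lymphoid genes and 5 of 13 neutrophil genes were higher. Of the tested B cell genes, 0 of 4 were. A gene can reach the minimum level through the Mono cluster alone, which raises such fractions. The 15 listed NK and innate lymphoid genes summed to at most 42.2 CPM in any other immune library, so none could be called lower. Of the listed genes in the table, 13 of 17 T cell and 13 of 15 NK genes had their highest mean of the 38 clusters here. So had 15 of 17 neutrophil and 9 of 12 B cell genes, beside 629 of all 18560 genes (3.39%).

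Of 8 dendritic cell genes tested, 1 was higher, Ccl5, which T and NK cells also express. Of the 23 listed genes in the table, those below the minimum level included, 10 had their highest mean of the 38 clusters in the Mono cluster, as had 629 of the 18560 genes of the table (3.39%). Flt3, the receptor that dendritic cells depend on, was seen in 12 Mono cells, the receptor Xcr1 of cross-presenting dendritic cells in 5 and Clec9a in 2. Clec10a and Cd209a had their highest mean of the 38 clusters in the macrophage cluster (416 and 200 CPM, against 47.0 and 36.1 CPM in the Mono cluster). Of the plasmacytoid dendritic cell genes 0 of 4 tested were higher.

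Genes of resident macrophages were present at a reduced level. None of the 12 border macrophage genes was called in either direction, because the microglia clusters had less of them still. Pf4, a platelet-type chemokine, had a mean of 611 ± 140 CPM in the Mono and 5184 CPM in the macrophage cluster, Mrc1, the mannose receptor, 214 ± 44.2 and 1429 CPM, and Lyve1, a hyaluronan receptor, 2.94 ± 3.31 and 217 CPM. Of the 18 microglia genes tested, 6 were lower and 0 higher. The complement genes C1qa, C1qb and C1qc had means of 3700 ± 534, 3174 ± 337 and 2396 ± 324 CPM in the Mono cluster, and their lowest means elsewhere were 6569, 4734 and 4580 CPM. Csf1r, the receptor that macrophages and microglia need to survive, had 445 ± 99.3 CPM against 861 CPM in MicroG3. P2ry12, which microglia use to sense nucleotides, had 70.8 ± 45.4 CPM against 2094 CPM in MicroG2, and the macrophage cluster was as low as the Mono cluster with 85.6 CPM. The genes with the most negative ratio to the lowest other cluster included Ltc4s, Smim1, Tcn2, Tnfrsf17, Fez2, Fcrls, Fcgr3 and RP23-81F19.2. Ltc4s, the synthase of leukotriene C4, had 138 ± 33.0 CPM in the Mono cluster and 537 to 1023 CPM in the others. The Fc receptor Fcgr3 had 332 ± 62.8 CPM against 752 CPM or more.

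The remaining lists were mixed. Of 12 alarmin and S100 genes tested, 10 were higher, among them Lgals3 (403 ± 194 CPM), Vim (205 ± 79.5 CPM) and S100a11 (558 ± 156 CPM). Of 19 leukocyte-wide and Fc receptor genes tested, 6 were higher, among them Ptprc, which encodes CD45 (313 ± 41.97 CPM against 171 CPM in MicroG1), and 2 were lower, Fcgr3 and Fcer1g. Of 17 chemokines and receptors tested, 5 were higher (Ccl5, Ccr2, Cxcl16, Cxcr4 and Cxcr6), and of 11 adhesion genes 4 were (Itga4, Itgb7, Cd44 and Emb). None of 17 interferon-stimulated genes, of 16 immediate early and dissociation genes or of the 4 tested red blood cell genes was higher. Immediate early genes, which dissociation is known to induce, had a summed level of 3998 to 8359 CPM in the Mono libraries and 15281 to 18320 CPM in those of MicroG1. Their sums were 5760 to 11379 CPM in the macrophage, 2187 to 3315 CPM in the MicroG2 and 625 to 939 CPM in the MicroG3 libraries. Ribosomal protein genes took 21.8 ± 0.79% of the UMIs of the Mono cells and 13.04 to 19.5% on average in the other immune clusters.

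The genes called higher came in part from different cells. The 4 genes Cd74, H2-Aa, H2-Ab1 and H2-Eb1 were all seen in 312 Mono cells, whereas 203 cells (32.6%) had no UMI of any of them, and 137 cells had 100 UMIs or more. Short sets of genes were followed in single cells, and were chosen with the values known. At least 1 UMI of the MHC class II set was found in 67.4% of Mono cells (95% interval 63.6 to 71.1%), 25.3% of macrophage cells and 9.69% of MicroG2 cells. At least 1 UMI of the T cell set (Cd3d, Cd3e, Cd3g) was found in 18.6% of Mono cells (15.6 to 21.9%), 0.175% of macrophage and 0.0885% of MicroG2 cells. The shares of Mono cells were 23.4% for the NK cell set (Nkg7, Klrk1, Klrd1, Ncr1), 6.74% for the neutrophil set (S100a8, S100a9, Retnlg, Ngp, Camp) and 4.17% for the B cell set (Cd79a, Ms4a1, Vpreb3, Pax5), and those of macrophage cells were 0.524, 0.874 and 0%. In a count of 0 of 572 macrophage cells the exact interval reaches 0.643% for the B cell set. Thinned to 500 UMIs per cell, which removed no cell, the Mono shares were 62.9% for MHC class II, 13.5% for T cell, 15.1% for NK cell, 5.94% for neutrophil and 3.53% for B cell genes. Of the 116 cells with a UMI of the T cell set, 6 also had one of the MHC class II set and 80 one of the NK cell set. Of the 146 with a UMI of the NK cell set, 44 (30.1%) also had one of the MHC class II set. Of the 26 with a UMI of the B cell set, 23 had one of the MHC class II set. The intervals and shares cover counting error only.

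Sets of the monocyte and the resident macrophages were spread more widely. The classical monocyte set (Ly6c2, Ccr2, Plac8, Chil3) was found in 39.2% of Mono cells and 0.350% of macrophage cells. The border macrophage set (Pf4, Mrc1, Cbr2, F13a1) was found in 38.5% of Mono, 98.3% of macrophage and 2.21% of MicroG2 cells. The microglia set (P2ry12, Tmem119, Sall1, Olfml3) was found in 26.2% of Mono, 18.5% of macrophage and 99.4% of MicroG2 cells, and in 11.1% of cells of the astrocyte cluster Astro1, which should lack it. After thinning the Mono shares were 22.2, 21.7 and 9.47%. Of the 420 cells with MHC class II UMIs, 217 (51.7%) also had a border macrophage UMI and 145 (34.5%) a classical monocyte UMI.

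Clustering the 623 cells again gave 10 subclusters, numbered by size, whose leading genes are those with the largest log2 ratio to the other Mono cells. They describe the cells and were not tested. Subcluster 1 (137 cells, 22.0%) was T cell- and NK cell-like, led by Gzma, Cd3g and Nkg7. In it Gzma was seen in 8.03% of cells, Cd3g in 71.5% and Nkg7 in 67.9%. There Cd8a had 213 CPM against 41.1 CPM for Cd4, and Cd74 had 18.7 CPM. Cd52 had 3377 CPM in subcluster 1 and 932 CPM in subcluster 2. Of all Gzma UMIs in the Mono cluster, 43.8% were those of 1 cell. Subcluster 8 (33 cells, 5.30%) was neutrophil-like, led by S100a9, Retnlg and S100a8, the last at 175852 CPM and in 100% of its cells. Subcluster 10 (23 cells, 3.69%) was B cell-like, led by Cd79a, Vpreb3 and Ly6d, with Cd79a in 100% of cells, and Vpreb3 is known from B cell precursors. Together the 3 held 193 cells, 31.0% of the Mono cluster, between 25.9 and 42.4% of it in every library.

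Subcluster 3 (68 cells, 10.9%) was classical monocyte-like, led by Fn1, Plac8 and Cd209a, with Chil3 among the next. In it were 962 CPM of Ccr2, 1047 CPM of Ly6c2 and 12506 CPM of Cd74, and it held UMIs of the dendritic cell genes Xcr1 (61.8 CPM) and Flt3 (50.2 CPM) and of Mki67 (100.5 CPM), a gene of dividing cells. Of the 17 listed classical monocyte genes, 6 were highest in subcluster 3 and 7 in the neutrophil-like subcluster 8, counting genes seen in 10% of the cells there or more. Those of subcluster 8 included Ly6c2 (1192 CPM) and Chil3 (304 CPM, against 205 CPM in subcluster 3). Subcluster 3 was also highest for 4 of 12 listed nonclassical monocyte genes, Nr4a1, Ace, Spn and Adgre4. It contained 58.5% of the UMIs of the classical monocyte set, and the T cell- and NK cell-like subcluster 15.8%. Of the 10 leading genes of subcluster 3, 3 were listed classical monocyte genes, 1 was a listed nonclassical monocyte gene and 1 a dendritic cell gene, Cd209a. Fn1 was seen in 29.4%, Plac8 in 45.6% and Cd209a in 14.7% of its cells. Classical monocyte genes were thus among those that led this subcluster, which held 10.9% of the cells labelled Mono. Because T, NK and B cell and neutrophil genes led others, the cells are called by the cluster's name, and the cluster as a whole was given no other.

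The other 6 subclusters carried MHC class II genes and were left unnamed. Subcluster 2 (119 cells) was led by Tslp, Ltc4s and Cbr2 and had 22062 CPM of Cd74, 7061 CPM of C1qa and 459 CPM of Mrc1. Of its cells, 73.1% had a UMI of the border macrophage set and 7.56% one of Tslp. Subcluster 7 (45 cells) was led by Cxcl2, Ccl7 and Ccl2, chemokines that draw in neutrophils and monocytes, followed by Dusp1, an immediate early gene. It had 24700 CPM of Cd74 and 2665 CPM of Pf4, and MHC class II UMIs were found in 100% of its cells. Subcluster 9 (25 cells) was led by Cxcl9, Cxcl10 and Rsad2, genes induced by interferons, with 1690 CPM of Isg15 and 7123 CPM of Ccl12. Subcluster 4 (66 cells) was led by Neo1, Pld2 and Dedd, each in no more than 10.6% of its cells, and had a median of 1131.5 UMIs.

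A pair of subclusters carried genes of other bulb cells. Subcluster 5 (58 cells) was led by Gpnmb, Ptn and Cmtm5, with Gpnmb in 12.1% of its cells. It had 2372 CPM of Npy, a marker of olfactory ensheathing cells, beside 10727 CPM of Cd74. Subcluster 6 (49 cells) was led by Grin2b, Snhg11 and Meg3, transcripts of neurons, beside 9815 CPM of Cd74. Its cells had a median of 819 UMIs and 15.0% mitochondrial UMIs, against 1844 UMIs and 7.37% in the whole Mono cluster. The part of free RNA or of droplets with more than 1 cell in these values was not tested. Per its methods, the study removed doublets, and no doublet caller was run on the cells used here.

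**Figure D2:**
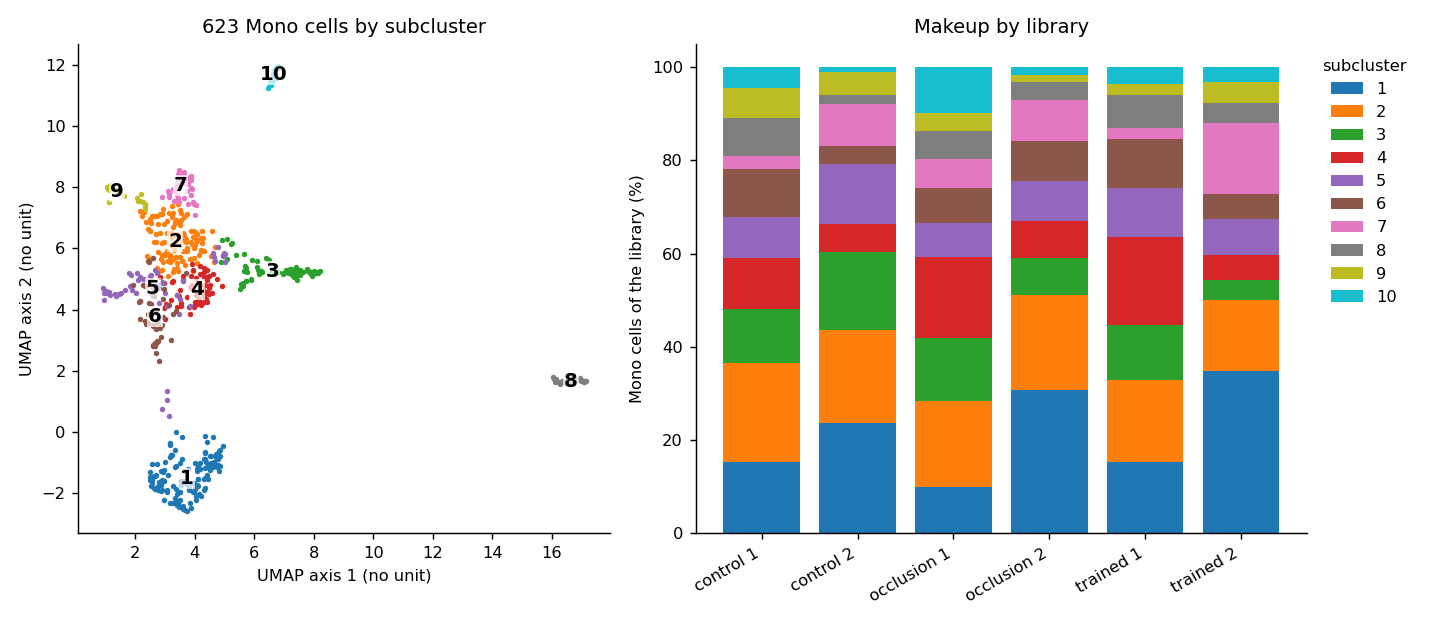
Left, the 623 Mono cells on 2 UMAP axes without unit, coloured and numbered by subcluster. Right, the share in percent of each library's Mono cells (y axis, from 0 to 100) that each subcluster held, with subclusters 1, 8 and 10 apart from the others in the UMAP and subcluster 1 at 9.88 to 34.8% of a library.

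At a Leiden resolution of 0.5, subclusters 8, 10, 1 and 3 had a best overlap with a subcluster of that setting (shared cells over all cells of both) of 1.0, 1.0, 0.965 and 0.971. Subcluster 8 kept 1.0 in all 4 other settings, and subcluster 10 had 0.920 to 1.0. At a resolution of 2, subclusters 1 and 3 had 0.350 and 0.522. At the main resolution they had 0.5725 and 0.5217 with 10 principal components, and 0.7203 and 0.7654 with 30. Over all subclusters the adjusted Rand index with the 4 other settings was 0.444 to 0.523, and subcluster 2 had a best overlap of 0.256 to 0.358.

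**Figure D3:**
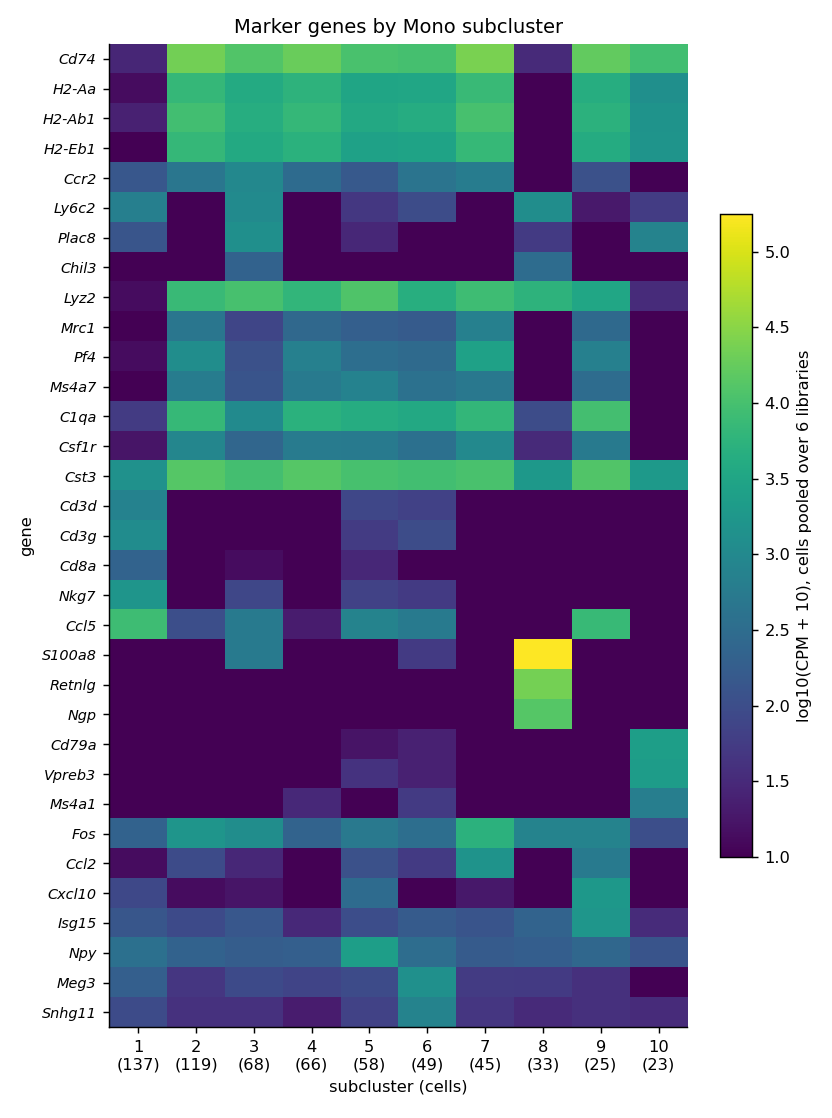
Level of marker genes (rows) in the 10 subclusters (columns, with their cells in parentheses), as log10 of CPM plus 10 over cells pooled from 6 libraries, by colour. Cd74 and the H2 genes are bright in every subcluster except 1 and 8, while the Cd3, S100a8 and Cd79a blocks are each brightest in 1 subcluster.

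Without subclusters 1, 8 and 10, a choice made after seeing the data, 430 cells remained, 53 to 99 per library. The number of higher genes was then 50, of which 44 were among the 123, and the number of lower genes 11, of which 8 were among the 30. Of the 20 genes with the largest ratios, 7 remained higher: H2-Eb1, H2-Aa, H2-Ab1, Ccr2, Cd74, S100a4 and Fxyd5. All 7 MHC class II genes and 6 of the 10 alarmin and S100 genes remained. So did 1 of the 5 NK and innate lymphoid genes (Klrk1), and none of the called T cell or neutrophil genes did. Subcluster 1 had held 94.8% of the UMIs of the T cell set and subcluster 8 98.9% of those of the neutrophil set. Of the MHC class II set, subclusters 1, 8 and 10 had held 0.0282, 0.0028 and 1.60%. These losses and retentions thus followed from the choice of cells and are no separate evidence. Ly6c2 and Plac8 were no longer called, with Ly6c2 listed at 0 in the library trained 2. The 6 microglia genes called lower, C1qa and Csf1r among them, were no longer called in the remaining cells. Cd52 was still called higher in the remaining cells. Mean Cd74 in the remaining cells was 16846 ± 1325 CPM.

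The shares of cells with a UMI of each set were also laid out by replicate number, which is the male and the female pools. The MHC class II set was found in 69.3, 72.8 and 75.3% of the Mono cells of replicate 1 of control, naris occlusion and trained, and in 69.3, 61.4 and 58.7% of those of replicate 2. The control values before rounding were 69.34 and 69.31%. For the T cell set the shares were 15.3, 6.17 and 15.3% in replicate 1 and 16.8, 24.4 and 31.5% in replicate 2. The NK cell set was likewise lower in replicate 1 (15.3 to 16.8%) than in replicate 2 (28.3 to 34.8%), and the neutrophil set was higher, with 8.64 to 9.49% against 2.97 to 5.43%. The B cell set had 4.71 to 11.1% against 0.990 to 3.26%. These 5 of 8 sets did not overlap between the numbers, and the classical monocyte, border macrophage and microglia sets did. The share of all genes that separate in the same way was not counted, so 5 of 8 has no background to be read against. None of the 8 passed an exact two-sided permutation test, which gave the 5 a p of 0.1, the smallest that 3 libraries against 3 allow, and an adjusted p of 0.16 over the 8 sets. The sets were chosen with their values known, and their shares are of the same cells and depend on each other. Sex and any other factor shared by libraries of the same number cannot be told apart. Xist and the Y-linked genes were left out of the clustering.

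**Figure D4:**
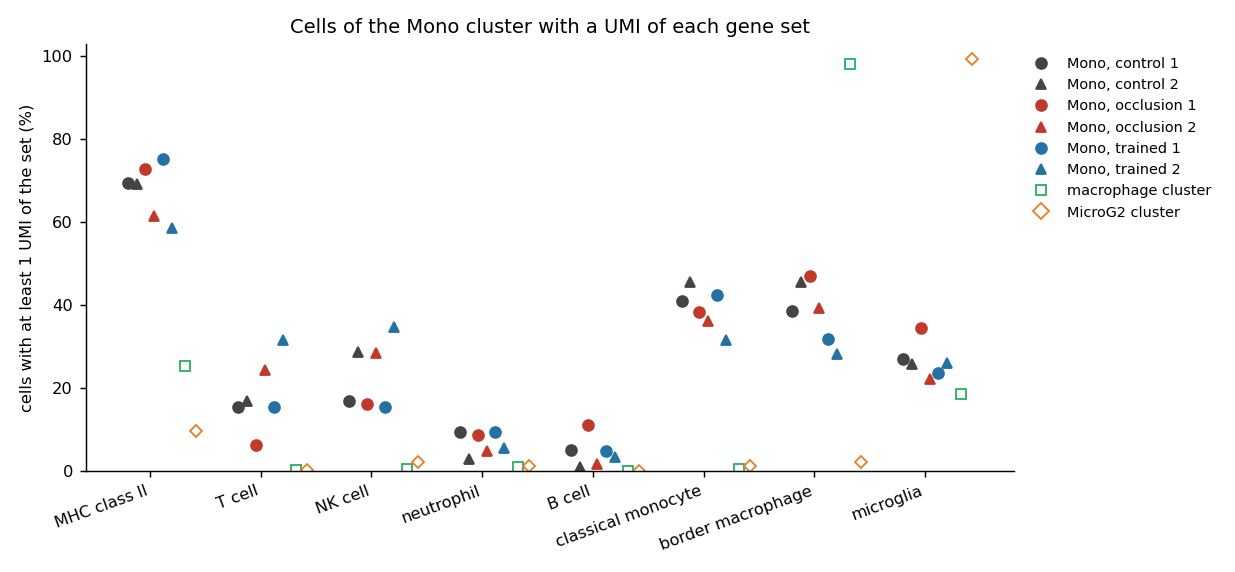
Share in percent (y axis, from 0) of Mono cells with at least 1 UMI of each of 8 gene sets, 1 filled point per library, circles for replicate 1 and triangles for replicate 2, with the macrophage and MicroG2 clusters as open symbols. Circles lie above triangles for the MHC class II, neutrophil and B cell sets and below them for the T cell and NK cell sets.

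The share of Mono cells was compared between conditions to ask whether deprivation or training changed their number. Of the annotated cells, Mono cells made up 1.37 and 1.31% with control, 1.11 and 1.39% with naris occlusion and 0.804 and 1.37% with training. The library trained 1 was the lowest, with an interval (0.643 to 0.993%) that overlapped that of naris occlusion 1 (0.884 to 1.38%) and of no other library. With edgeR's quasi-likelihood test over all 38 clusters, the log2 change was -0.10 ± 0.31 (SE) with naris occlusion (Benjamini-Hochberg adjusted p = 0.869) and -0.32 ± 0.31 with training (adjusted p = 0.760), so neither passed the test. Of the 38 clusters 1 was called with naris occlusion (2.63%) and 0 with training (0%). Without the library naris occlusion 1 the change was 0.05, and without trained 1 it was 0.03.

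Whether a gene of the Mono cluster passed the test between conditions depended on the fit. On counts summed per library, edgeR's quasi-likelihood test called 0 of 3282 genes with naris occlusion (0%) and 0 of 3282 with training (0%) at an adjusted p under 0.05, with 112 and 136 genes at an unadjusted p under 0.05. With the replicate number as a block, 5 genes passed with naris occlusion and 0 with training, and with no filter on low counts 12 and 22 passed, of 14902 genes. Naris occlusion gave 1 gene without control 2, and training gave 1 without control 1 and 2 without trained 1. DESeq2 called 0 in both, with 20 and 24 genes at an unadjusted p under 0.05 of 14902 genes. On simulated data of the naris occlusion comparison, edgeR's test recovered 75.1% of 189 genes changed by 4-fold, with 9 false calls. DESeq2 recovered 41.5% of 200 such genes, with 1 false call. The simulated counts had many changed genes at once, no deviation shared by same-numbered libraries and no grouping of UMIs in cells. These shares therefore do not give the power of the comparison on the real data.

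The genes with the lowest p in the filtered fit without the block, none of them called there, are given as values. With naris occlusion they were Fgl2, AA467197, Tspo, Fundc1 and Ppp2ca (adjusted p = 0.9998 for each by edgeR). With no filter on low counts AA467197 was called (log2 change -4.62, adjusted p = 8.52e-05 by edgeR). Its log2 change in the filtered fit was -4.61, and it was -7.02 without naris occlusion 1 and -3.77 without naris occlusion 2. AA467197 had 63.8 and 73.2 CPM in the control, 4.46 and 0 CPM in the naris occlusion and 36.4 and 4.59 CPM in the trained libraries. Fgl2, a fibrinogen-like protein that T cells and macrophages secrete, had 178 and 174 CPM in the control, 57.9 and 75.8 CPM in the naris occlusion and 158 and 179 CPM in the trained libraries, a log2 change of -1.35 ± 0.27. Tspo, a mitochondrial protein used as an imaging target for activated microglia, had 524 and 544, 254 and 276, and 285 and 367 CPM, with log2 changes of -0.97 ± 0.23. Both genes were picked for their low p. With training the lowest p belonged to Rnase4, Mt2, Cd163, Ifi35 and Alkbh5 (adjusted p = 0.991 for each by edgeR). Mt2, a metallothionein, had 60.5 and 59.3 CPM in the control, 93.6 and 156 CPM in the naris occlusion and 188 and 128 CPM in the trained libraries, a log2 change of 1.42 ± 0.35. Cd163, the scavenger receptor for hemoglobin, had 13.4 and 10.5 CPM in the control, 31.2 and 62.4 CPM in the naris occlusion and 84.9 and 45.9 CPM in the trained libraries, with a log2 change of 2.41 ± 0.66. Naris occlusion, set against the same control libraries, had log2 changes of 1.09 in Mt2 and 1.96 in Cd163, neither of them called.

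Without the block, no listed gene was called in either comparison. The 9 MHC class II genes tested had a median log2 change of 0.02 with naris occlusion and -0.09 with training, beside medians of 0.01 and 0.00 over all genes tested. The 14 classical monocyte genes had medians of -0.15 and -0.53, and all 14 were lower with training, beside 1636 of all 3282 genes. The library trained 2 held 4 cells of subcluster 3 and each other library 10 to 17. The 21 interferon-stimulated genes had medians of -0.34 and -0.48, with 18 and 17 of them lower. Subcluster 9 was highest for 23 of the 25 listed ones, counting genes seen in 10% of its cells or more. It held 6.57 and 4.95% of the Mono cells with control, 3.70 and 1.57% with naris occlusion and 2.35 and 4.35% with training. These were 2 to 9 cells per library, and the part of this makeup in the medians was not tested. The 4 cell division genes had medians of -0.28 and -2.97 and were all lower in both comparisons. The 15 cell division genes in the table summed to 561 and 300 CPM in the control libraries. The sums were 633 and 22.3 CPM in the naris occlusion and 158 and 22.9 CPM in the trained libraries. Naris occlusion 1 was thus the highest library. The 13 neutrophil genes had medians of 0.03 and 0.56, with 7 and 13 of them higher. The trained libraries differed widely in them, with Ngp at 2032 CPM, Camp at 2208 CPM and Ltf at 382 CPM in trained 1 and all 3 listed at 0 in trained 2. The 15 immediate early and dissociation genes had medians of 0.47 and 0.44, with 13 and 15 of them higher. The 17 in the table summed to 4122 and 5523 CPM with control and 5625 and 7171 CPM with naris occlusion. With training they summed to 3998 and 8359 CPM, so trained 1 was the lowest library. Subcluster 7 was highest for 14 of the 17, counting genes seen in 10% of its cells or more. It held 4 and 9 cells with control, 5 and 11 with naris occlusion and 2 and 14 with training. The 5 astrocyte genes were all higher in both comparisons (0.25 and 0.60), and the 6 neuron genes had medians of -0.68 and -0.05, with 6 and 3 of them lower. The part of dissociation and of RNA of other cells in these changes was not tested. Both comparisons share the control libraries.

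The replicate number was taken as a block because of the pairing check described with the methods. Of the 5 genes called with it, chosen after their values were seen, Cxcl9, Prtn3, Elane and Ltf were lower and Retnlg was higher by edgeR. Their UMIs came from 13, 5, 2, 8 and 29 cells in all 6 libraries, and 82.5% of the Prtn3 UMIs and 88.3% of the Elane UMIs were those of 1 cell. Cxcl9 had 63.8 and 356 CPM in the control, was listed at 0 in both naris occlusion libraries and had 36.4 and 688 CPM in the trained libraries. Retnlg had 769 and 199 CPM in the control and 1578 and 977 CPM in the naris occlusion libraries (log2 change 1.63 with the block, adjusted p = 8.48e-04 by edgeR). Prtn3 and Elane are granule genes of neutrophil precursors, and Ltf and Retnlg are neutrophil genes.

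The effect of each manipulation in the Mono cells was then set against that in the microglia of the same libraries. Of 8534 genes, 1 had a different effect of naris occlusion (0.0117%) and 0 of training (0%) by edgeR, with 329 and 389 genes at an unadjusted p under 0.05, and no other tool was run. With training, 5 genes were called without control 2, 1 without control 1 and 9 without trained 1. With naris occlusion, 3 were called without naris occlusion 1 and 2 without naris occlusion 2. The gene called with all libraries was Ccl12, a chemokine that attracts monocytes, with a difference of 1.30 on the log2 scale (adjusted p = 0.0254). In the Mono cells Ccl12 had 1105 and 844 CPM in the control, 1297 and 861 CPM in the naris occlusion and 861 and 1505 CPM in the trained libraries. In the microglia it had 499 and 273, 157 and 181, and 279 and 314 CPM. The control and naris occlusion libraries overlapped in the Mono cells and did not overlap in the microglia, where naris occlusion was the lower. With the replicate number in place of the library term the difference was 1.34 and was not called (adjusted p = 1.0). The call was also lost without control 1 (1.02, adjusted p = 1.0) and without naris occlusion 1 (0.83, adjusted p = 0.4865).

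**Figure D5:**
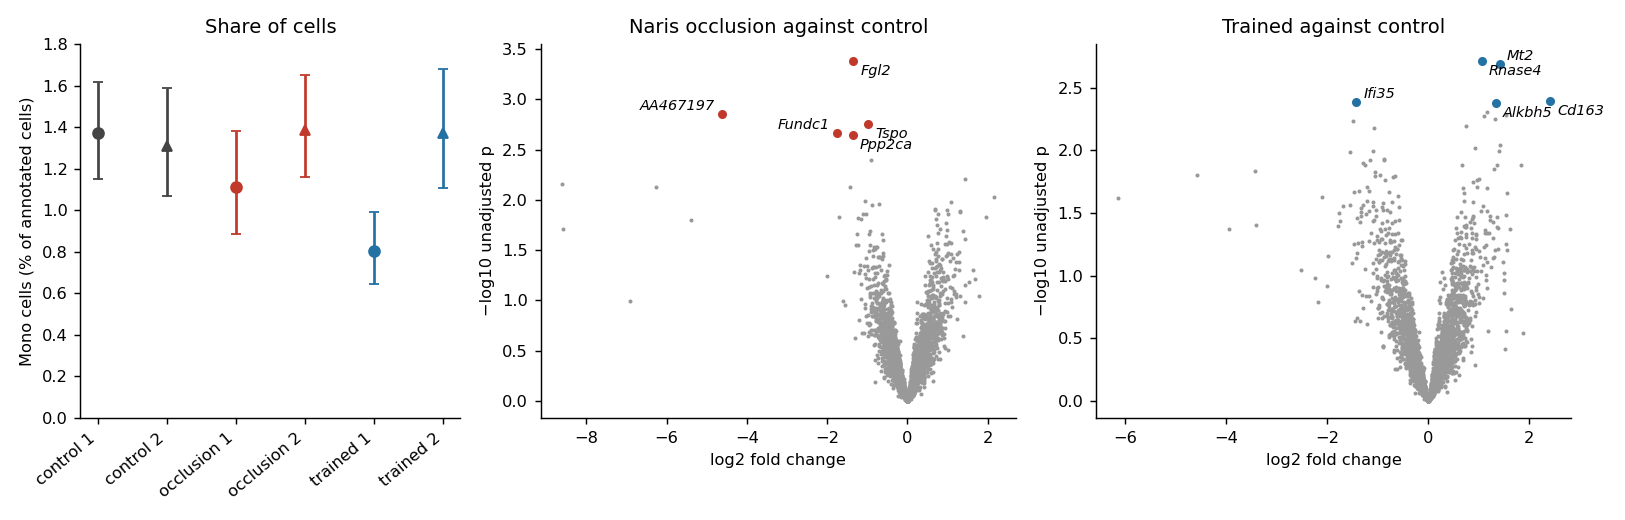
Left, Mono cells in percent of annotated cells of each library with exact 95% intervals. Middle and right, log2 fold change (x axis) against -log10 of the unadjusted p (y axis) of the 3282 genes tested in Mono cells with naris occlusion and training, the 5 with the lowest p named, none of which passed the adjusted threshold.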

How the data were processed

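The authors captured cells of 6 libraries with a droplet 3′ kit and deposited 1 table of raw UMI counts per gene and cell, with 52549 barcodes and 18560 genes, and an annotation of 51426 cells with the cluster, the library and the mitochondrial fraction. Per the labels and the study's methods, Cell Ranger 2.0.0, Seurat 2.2.1 and the build mm10 were used, cells had at least 200 genes, doublets were removed, and clusters were made on normalised values with molecules and mitochondrial genes regressed out and then merged. Libraries held 6705 to 10570 annotated cells and 11841160 to 17065083 UMIs. No column of another sample was met (0).

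From the counts, UMIs were summed per library and cluster (Python 3.11.15, scipy 1.17.1). Genes with a mean of at least 50 CPM in 1 of the 5 immune clusters were compared. Cells were clustered again with scanpy 1.11.5 and leidenalg 0.10.2 (genes in at least 10 cells, 1000 variable genes, 15 principal components, 15 neighbours, resolution 1.0). Conditions were compared on the sums with edgeR 4.0.16 in R 4.3.3 (quasi-likelihood test, TMM, filter on low counts), with both manipulations and the control in 1 fit, and DESeq2 1.42.0 as an alternative. Benjamini-Hochberg adjustment ran over all genes tested, at a threshold of 0.05. The Mono and microglia sums were fitted together with a term for the library, and cluster shares over 38 clusters. These steps were tested on simulated data.

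Same-numbered libraries deviated together, with correlations of 0.121, 0.288 and 0.153 over 3279 genes with the sex-linked genes left out, so the replicate number was taken as a pairing. The main fit has no block, and the blocked value is given where it changes a call. Replicates of a condition had a chi-square per degree of freedom of 3.04 to 5.11 on summed UMIs. That value takes each UMI as an independent draw, whereas UMIs come grouped in cells. It therefore cannot tell a difference between pools from the sampling of cells.

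The cluster and the gene lists were chosen with earlier results of these data known. The genes named against the other immune clusters are the 20 with the largest ratio among those called higher and the 10 with the most negative ratio among those called lower, and between conditions the genes called and the 5 with the lowest p, beside members of the lists and the 3 leading genes of each subcluster. Some genes that this rule names are not reported here. Other genes, chosen after their values were seen, are the 5 of the blocked fit and those named within subclusters. Alternatives covered the filter, normalisation, tool, minimum level, depth, libraries left out and clusters compared.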

Additional observations from a re-analysis of the deposited data

Results flagged for a closer look

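The effect of naris occlusion on Ccl12 differed between the Mono cells and the microglia of the same libraries, by 1.30 on the log2 scale (edgeR, adjusted p = 0.0254). Mono cells had 1105 and 844 CPM in the control and 1297 and 861 CPM in the naris occlusion libraries, so 1 of the 2 naris occlusion libraries lay above both controls, whereas both microglia libraries with naris occlusion (157 and 181 CPM) lay below both controls (499 and 273 CPM). Against the macrophage cluster in place of the microglia the difference was -0.11 (adjusted p = 1.0), and macrophage cells had 2504 and 1380 CPM in the control and 2818 and 1842 CPM in the naris occlusion libraries. The call was also lost with the replicate block in place of the library term (1.34, adjusted p = 1.0), with no library term (1.36, adjusted p = 1.0), without control 1 (1.02, adjusted p = 1.0) and without naris occlusion 1 (0.83, adjusted p = 0.4865). Within the Mono cluster Ccl12 was highest in subcluster 9, with 712 CPM in subcluster 2 and 7.73 CPM in subcluster 3. Subcluster 9 held 9 and 5 cells in the control and 3 and 2 cells in the naris occlusion libraries. Its part in the difference and the cause were not tested.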

How the results depend on the processing

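For the main result of each comparison, 74 values under an alternative stayed on the same side of the threshold or, for counts and shares, near the main value, 29 moved, 2 changed sign and 1 passed the threshold. With naris occlusion, the genes called in Mono cells were 5 with the replicate block, 12 with no filter on low counts and 0 to 1 with a library left out. With training they were 22 with no filter and 0 to 2 with a library left out. The blocked fits changed no other call among the results with training or the shares. For the difference from microglia with naris occlusion, 0 genes were called with the macrophage cluster in place of the microglia, with no library term, and with the replicate block in place of that term, and 0 to 3 with a library left out. With training it was 0 to 9. The Ccl12 difference was -0.11 against macrophages, 1.36 with no library term and 1.34 with the block, none called, and 0.83 to 1.75 with a library left out. The log2 change in the share of Mono cells with naris occlusion ranged from -0.270 to 0.0493 with a library left out (the highest without naris occlusion 1), and with training from -0.737 to 0.0332 (the highest without trained 1), where a chi-square test on pooled cells, which takes cells for replicates, gave -0.39 (p = 0.00581). The genes called higher were 369 in the 2 control libraries only, 194 without MicroG3, 50 without subclusters 1, 8 and 10 and 130 to 146 with a library left out. Those called lower were 196, 90, 11 and 36 to 40 in the same settings. The cells with a UMI of the NK cell set were 15.1% when thinned to 500 UMIs. The classical monocyte set was found in 22.2% when thinned and 27.8% at 2 UMIs or more, the border macrophage set in 21.7 and 27.3%, and the microglia set in 9.47 and 13.3%. Leiden resolution 2 gave 17 subclusters. The causes were not tested. With 2 libraries per group an exact permutation test cannot go below a p of 0.333.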
